A study of Mus musculus with 9 samples.

Results

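The 9 genes described here encode costimulatory and inhibitory receptors and ligands of the leukocyte surface. They were chosen by name: Cd274, Pdcd1lg2, Cd80, Cd86, Havcr2, Cd200r1, Cd200r3, Cd200r4 and Cd101, 9 of the 54146 genes in the expression table. All 9 passed the filter on low counts, which kept 15886 genes. The cells were eosinophils sorted from adult mouse quadriceps muscle, as CD45- and Siglec-F-positive cells that lacked CD11c, Gr1 and MHC class II. Per the titles, 3 libraries came from IL5Tg mice, which carry an interleukin-5 transgene, and 3 from mdx mice, dystrophin-deficient animals that model Duchenne muscular dystrophy. The remaining 3 came from mdx_IL5Tg mice, which combine both. The strain label reads mdx for all 9 libraries, IL5Tg included, which conflicts with the titles; the titles set the groups. The labels do not give the promoter of the transgene, nor whether animals were pooled.

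T cells need a costimulatory signal beside the antigen signal, and CD80 and CD86 deliver it through CD28, or an inhibitory signal through CTLA-4. PD-L1 (Cd274) and PD-L2 (Pdcd1lg2) bind PD-1 on activated T cells and dampen their response, and PD-L1 is known to be induced by interferon-gamma. CD200R1 is an inhibitory receptor of myeloid cells for CD200, whereas its paralogs CD200R3 and CD200R4 are activating receptors that pair with the adaptor DAP12. TIM-3 (Havcr2) and CD101 are immunoglobulin-family receptors with inhibitory functions on T cells and myeloid cells. In mouse lung, CD101 is a known surface marker of inflammatory rather than resident eosinophils.

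Several of the genes lie together. In GRCm38 with GENCODE release M21, Cd274 lies at chr19:29367455-29388095 on the plus strand and Pdcd1lg2 follows at chr19:29410919-29471161, 22823 bases further on the same strand. Cd200r1 (chr16:44765736-44794978), Cd200r4 (chr16:44811733-44839150) and Cd200r3 (chr16:44943678-44981380) form a plus-strand cluster. The same chromosome holds Cd80 (chr16:38455561-38496335, plus strand) and Cd86 (chr16:36603869-36666081, minus strand). Havcr2 lies at chr11:46454935-46481255 on the plus strand and Cd101 at chr3:100993529-101029556 on the minus strand. All 9 are protein coding. An antisense transcript overlaps Cd274 (AC119228.1) and another overlaps Pdcd1lg2 (A930007I19Rik). The strand setting of the counting is not given in the sources used here, so reads of these pairs cannot be told apart.

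Promoter windows (the 250 bases before the start) were found in RefSeq's table for GRCm38.p6 for 7 of the 9 genes, without Cd86 and Cd200r1. The windows of Cd200r3 and Cd200r4 are shown because the paralogs align over 107 bases with 93 identical bases, while Cd200r4 fell in mdx in the results that follow and Cd200r3 did not pass the test. The aligned stretch lies 181 to 75 bases before the start in Cd200r3 and 107 to 1 bases before it in Cd200r4. Capitals mark the identical bases.

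Cd200r3 chr16:44943497-44943603, plus strand: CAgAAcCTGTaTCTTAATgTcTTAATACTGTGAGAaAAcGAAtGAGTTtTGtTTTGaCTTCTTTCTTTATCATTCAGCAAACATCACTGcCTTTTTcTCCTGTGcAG

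Cd200r4 chr16:44820621-44820727, plus strand: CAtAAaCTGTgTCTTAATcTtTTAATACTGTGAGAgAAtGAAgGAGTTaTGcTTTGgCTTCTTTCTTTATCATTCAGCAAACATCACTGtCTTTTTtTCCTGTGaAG

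The Cd200r4 stretch lies within an intron of longer GENCODE transcripts of that gene. The motif AGATAA, in the form bound by GATA factors, the family of the eosinophil regulator GATA1, was searched on both strands. It occurred in 4 of the 7 windows (Cd274, Pdcd1lg2, Cd101 and Cd200r3) and in 9.99% of all 32851 windows of that length in the table. Exon-free stretches of 3 of these windows are shown for the PD-1 ligands and Cd101, with the motif in capitals.

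Cd274 chr19:29367391-29367437, plus strand: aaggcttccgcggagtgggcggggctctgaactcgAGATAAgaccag

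Pdcd1lg2 chr19:29410739-29410818, plus strand: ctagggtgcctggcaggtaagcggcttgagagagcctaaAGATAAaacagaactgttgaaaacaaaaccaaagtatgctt

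Cd101 chr3:101029654-101029733, minus strand: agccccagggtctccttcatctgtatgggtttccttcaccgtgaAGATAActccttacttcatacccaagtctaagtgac

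The other motifs were rarer in these windows. The STAT motif TTCNNNGAA was in 0 of 7 windows (7.02% of all), the interferon-stimulated response element in 0 of 7 (2.98% of all), the hypoxia core ACGTG in 1 (Havcr2; 16.6% of all) and the NF-kB motif in 1 (Pdcd1lg2; 3.9% of all). A match describes letters in the window, not a bound site.

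Library totals ranged from 26752780 to 58368283 expected counts. Levels are CPM, counts scaled to the library's total with trimmed-mean (TMM) factors, given as mean ± SD over n = 3 libraries per group. Libraries are named by the S numbers of the table's columns. A gene is said to rise or fall only where the adjusted p of edgeR's quasi-likelihood test (Benjamini-Hochberg over all genes tested) was under 0.05, and log2 changes carry their standard error (SE). The design text calls the replicates biological, but no label ties libraries to animals, so p-values measure the spread between these libraries. Il5 was at 317 to 724 CPM in the 6 transgenic libraries and at 0.265 to 0.402 CPM in mdx. These are bulk samples, in which fewer cells of a type and less RNA per cell cannot be told apart.

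In mdx_IL5Tg against IL5Tg, that is with the mdx background added to the transgene, 1 of the 9 genes rose (Cd101) and 0 fell, where 4.35% of all genes tested rose, 2.87% fell and 7.22% were called in either direction. The median log2 change of the 9 was 0.51 (0.22 over the 59 related genes described further on, -0.05 over all genes). All 9 changes were above 0, as were 7379 of all 15886 genes tested. At an unadjusted edgeR p under 0.05, 5 of 9 were higher and 0 were lower. Of all 15886 genes, 2139 were higher and 2254 lower at that threshold. Groups did not overlap for 5 of 9 (35.9% of all genes). The count of rises among the 9 was 5 with DESeq2, 3 with limma voom and 5 without mdx S5. Over all genes it was 691 with edgeR on all libraries, and 1207, 743 and 1557 in these settings. Among the 9 it was 2 without IL5Tg S8 and 2 without mdx_IL5Tg S3, where 295 and 916 of all genes rose. No alternative gave a fall among the 9.

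In mdx against mdx_IL5Tg, which differ by the transgene on the mdx background, 5 of the 9 genes fell (Cd274, Pdcd1lg2, Cd80, Cd200r1 and Cd200r4), where 10.1% of all genes fell. Havcr2 alone rose, where 11.5% of all genes rose. In either direction 6 of 9 were called, against 21.6% of all genes. Groups did not overlap for 7 of 9 (42.0% of all genes), and the median log2 change was -1.31 (0.13 over all genes). In mdx against IL5Tg, 3 of 9 fell (Cd274, Cd80 and Cd200r4; 8.96% of all genes) and 2 of 9 rose (Havcr2 and Cd101; 11.8% of all genes), 5 of 9 in either direction against 20.8% of all genes. Groups did not overlap for 6 of 9 (41.9% of all genes), and the median was -0.41 (0.01 over all genes). Each group enters 2 of the 3 comparisons, so the comparisons share libraries and are not independent of each other.

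**Figure D1:**
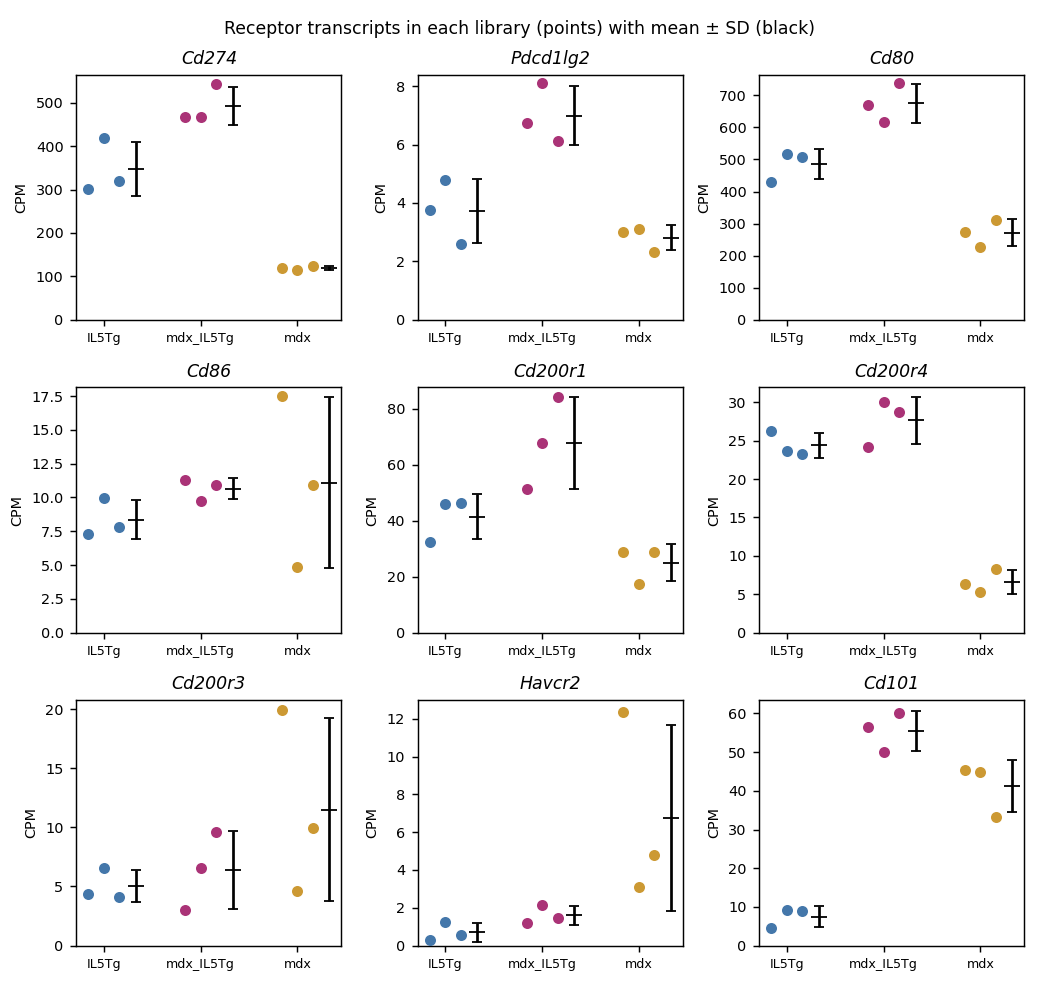
Level of each of the 9 genes in CPM (vertical axes) in the 9 libraries by group (horizontal axes), 1 panel per gene, 1 point per library, with the mean ± SD in black. Cd274 in the mdx libraries (115 to 123 CPM) sits below every transgenic library (302 to 543 CPM), and Cd101 in IL5Tg (4.51 to 9.18 CPM) sits below every library with the mdx background (33.3 to 60.1 CPM).

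Cd274, which encodes PD-L1, fell in mdx against both transgenic groups. It was at 302, 418 and 320 CPM in IL5Tg S7, S8 and S9, at 466, 467 and 543 CPM in mdx_IL5Tg S1, S2 and S3, and at 120, 115 and 123 CPM in mdx S4, S5 and S6. The 3 groups formed separate ranges, with mdx_IL5Tg highest and mdx lowest. Means were 347 ± 62.4, 492 ± 44.4 and 119 ± 4.24 CPM. Its level in mdx was 4.13-fold lower than in mdx_IL5Tg (log2 -2.05, SE 0.15, edgeR adjusted p = 1.5e-05). Against IL5Tg it was 2.91-fold lower (log2 -1.54, SE 0.15, edgeR adjusted p = 1.0e-04). The difference between mdx_IL5Tg and IL5Tg was 0.51 (SE 0.15, 95% interval 0.18 to 0.83) and missed the threshold with edgeR (adjusted p = 0.060), whereas DESeq2 gave an adjusted p of 0.029.

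Pdcd1lg2, which encodes the other PD-1 ligand, fell in mdx against mdx_IL5Tg. It was at 3.78, 4.80 and 2.61 CPM in IL5Tg S7 to S9, at 6.73, 8.11 and 6.14 CPM in mdx_IL5Tg S1 to S3, and at 2.99, 3.11 and 2.34 CPM in mdx S4 to S6. The mdx_IL5Tg libraries lay above the other 6, and IL5Tg and mdx overlapped. In mdx it was 2.48-fold lower than in mdx_IL5Tg (log2 -1.31, SE 0.27, edgeR adjusted p = 0.0074). Between mdx and IL5Tg the log2 difference was -0.41 (95% interval -0.9995 to 0.18; edgeR adjusted p = 0.30). Between mdx_IL5Tg and IL5Tg it was 0.90 (SE 0.27; adjusted p = 0.062 with edgeR and 0.015 with DESeq2).

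Cd80, a ligand of CD28 and CTLA-4 that also binds PD-L1 on the same cell, fell in mdx against both transgenic groups. Its level was 431, 518 and 508 CPM in IL5Tg S7 to S9, 668, 616 and 739 CPM in mdx_IL5Tg S1 to S3, and 274, 228 and 312 CPM in mdx S4 to S6. The 3 groups again did not overlap, in the order mdx, IL5Tg, mdx_IL5Tg. The fall was 2.49-fold against mdx_IL5Tg (log2 -1.31, SE 0.15, edgeR adjusted p = 3.3e-04) and 1.79-fold against IL5Tg (log2 -0.84, SE 0.15, edgeR adjusted p = 0.0037). From IL5Tg to mdx_IL5Tg the log2 difference was 0.47 (SE 0.15; adjusted p = 0.077 with edgeR and 0.038 with DESeq2).

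Cd86, the sister ligand of Cd80, did not pass the test in any of the 3 comparisons. It was at 7.26, 9.99 and 7.79 CPM in IL5Tg S7 to S9, at 11.3, 9.77 and 10.9 CPM in mdx_IL5Tg S1 to S3, and at 17.5, 4.85 and 10.9 CPM in mdx S4 to S6. The mdx libraries held both the highest and the lowest value, so every pair of groups overlapped. The log2 difference was 0.35 (95% interval -0.44 to 1.15) in mdx_IL5Tg against IL5Tg, 0.06 (-0.73 to 0.85) in mdx against mdx_IL5Tg and 0.41 (-0.38 to 1.21) in mdx against IL5Tg. The edgeR adjusted p was 0.56, 0.92 and 0.44. Without mdx S5, the library with the lowest value, it passed in mdx against IL5Tg (0.77, edgeR adjusted p = 0.044), and without mdx S4 the difference was -0.12.

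**Figure D2:**
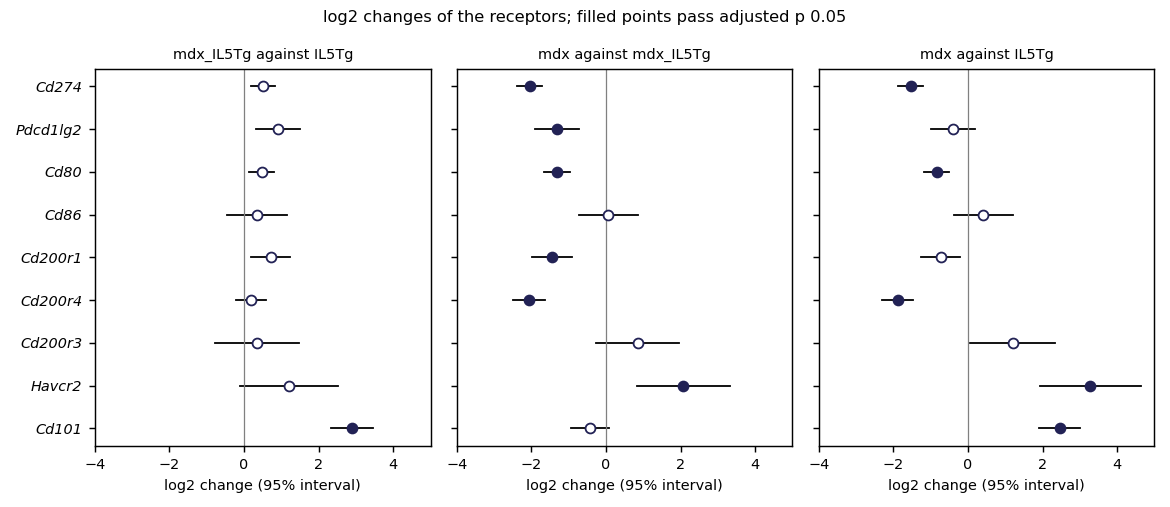
Log2 change with its 95% interval (horizontal axis) for the 9 genes (vertical axis) in the 3 comparisons. Filled points passed the edgeR threshold and open points did not. The intervals of Cd274, Pdcd1lg2, Cd80, Cd200r4 and Cd200r1 lie below 0 in mdx against mdx_IL5Tg, and that of Havcr2 lies above 0 there. Those of Cd86 span 0 in all 3.

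Within the CD200 receptor cluster, Cd200r4 fell in mdx against both transgenic groups, Cd200r1 fell against mdx_IL5Tg only, and Cd200r3 did not fall. Cd200r4 was at 26.2, 23.7 and 23.3 CPM in IL5Tg S7 to S9, at 24.2, 29.99 and 28.7 CPM in mdx_IL5Tg S1 to S3, and at 6.30, 5.25 and 8.27 CPM in mdx S4 to S6. The mdx libraries were far below the other 6, which overlapped. In mdx it was 4.17-fold lower than in mdx_IL5Tg (log2 -2.06, SE 0.19, edgeR adjusted p = 6.8e-05) and 3.68-fold lower than in IL5Tg (log2 -1.88, SE 0.19, edgeR adjusted p = 1.4e-04). Between mdx_IL5Tg and IL5Tg the difference was 0.18 (95% interval -0.22 to 0.58; edgeR adjusted p = 0.56).

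Cd200r1, the inhibitory receptor, was at 32.3, 45.9 and 46.2 CPM in IL5Tg S7 to S9, at 51.5, 67.8 and 84.3 CPM in mdx_IL5Tg S1 to S3, and at 28.7, 17.3 and 28.8 CPM in mdx S4 to S6. The 3 groups did not overlap. It fell 2.71-fold in mdx against mdx_IL5Tg (log2 -1.44, SE 0.24, edgeR adjusted p = 0.0030). Against IL5Tg the difference of -0.73 (SE 0.24) lay at the threshold, with an edgeR adjusted p of 0.053, and passed in 11 of 20 alternative settings. In mdx_IL5Tg against IL5Tg it was 0.71 (SE 0.24; adjusted p = 0.090 with edgeR and 0.048 with DESeq2).

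Cd200r3, best known from basophils and mast cells, went the other way in value but did not pass the test. It was at 4.38, 6.56 and 4.14 CPM in IL5Tg S7 to S9, at 2.98, 6.57 and 9.58 CPM in mdx_IL5Tg S1 to S3, and at 19.9, 4.65 and 9.91 CPM in mdx S4 to S6. The highest value was that of mdx S4, and each pair of groups overlapped. The log2 difference was 0.34 (95% interval -0.78 to 1.46) in mdx_IL5Tg against IL5Tg, 0.86 (-0.26 to 1.97) in mdx against mdx_IL5Tg and 1.20 (0.07 to 2.32) in mdx against IL5Tg. The edgeR adjusted p was 0.71, 0.25 and 0.12. RSEM shares reads between near-identical genes by estimation, so values of these paralogs are uncertain where reads fit more than 1 of them. Cd200r4 had whole counts in all 9 libraries and Cd200r3 and Cd200r1 in 8 of 9. In mdx against IL5Tg it passed without mdx S5 (1.57, edgeR adjusted p = 0.044) and with voom quality weights (1.46, adjusted p = 0.040). The weights also gave a call against mdx_IL5Tg (1.44, adjusted p = 0.028).

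Mast cell and basophil markers were read beside Cd200r3 and went in both directions. Of 10 tested mast cell and basophil markers, 3 rose and 2 fell in mdx against mdx_IL5Tg and 4 rose and 1 fell against IL5Tg. The mast cell chymase Cma1 was at 5.97, 3.38 and 0.579 CPM in mdx S4, S5 and S6 and at 0.0373 to 0.504 CPM in the transgenic libraries. Within mdx, the proteases Mcpt4 (4.67, 0.736 and 1.06 CPM in S4, S5 and S6) and Cpa3 (4.17, 0.803 and 1.62 CPM) had the order of Cd200r3, and Cma1 and Tpsb2 (4.44, 1.004 and 0.530 CPM) had S5 above S6. The high-affinity IgE receptor gene Fcer1a had a mean of 0.036 to 0.0677 CPM in the 3 groups. Other markers had their highest mean in IL5Tg. In IL5Tg, mdx_IL5Tg and mdx, Mcpt8 was at 0.788, 0.169 and 0.290 CPM and Ms4a2 at 1.05, 0.0666 and 0.176 CPM. Prss34 was at 1.16, 0.347 and 0.670 CPM and Gata2 at 64.0, 61.9 and 18.4 CPM. In mdx against IL5Tg, 5 of the 10 log2 changes were above 0 and 5 below (median -0.19). The summed markers ranged from 824 to 971 CPM in IL5Tg, from 920 to 1017 CPM in mdx_IL5Tg and from 517 to 799 CPM in mdx, most of it Hdc, which eosinophils also express. No marker was at 0 in all libraries, and the part of mast cell RNA in the Cd200r3 values was not tested.

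Havcr2, which encodes TIM-3, rose in mdx against both transgenic groups from a low level. It was at 0.288, 1.23 and 0.559 CPM in IL5Tg S7 to S9 (9, 38 and 15 counts), at 1.20, 2.17 and 1.46 CPM in mdx_IL5Tg S1 to S3, and at 12.4, 3.08 and 4.80 CPM in mdx S4 to S6. The mdx libraries were above all others, and mdx S4 stood well above S5 and S6. The rise was 4.21-fold against mdx_IL5Tg (log2 2.07, SE 0.57, edgeR adjusted p = 0.026) and 9.71-fold against IL5Tg (log2 3.28, SE 0.62, edgeR adjusted p = 0.0046). The call against mdx_IL5Tg was lost without mdx S4 (1.21, edgeR adjusted p = 0.15), without mdx_IL5Tg S1 (1.78, adjusted p = 0.12) and without mdx_IL5Tg S3 (1.89, adjusted p = 0.072). Against IL5Tg every one of the 20 alternatives kept the call, between 2.47 and 3.95. Between mdx_IL5Tg and IL5Tg the log2 difference was 1.21 (95% interval -0.12 to 2.53; edgeR adjusted p = 0.22).

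Most macrophage markers moved in the same direction as Havcr2, while Adgre1 fell in mdx against mdx_IL5Tg (means of 1201 and 2245 CPM). Of 10 macrophage markers, 7 rose and 1 fell in mdx against mdx_IL5Tg, 8 rose and 0 fell against IL5Tg, and 5 rose and 0 fell in mdx_IL5Tg against IL5Tg. The complement gene C1qb was at 63.2, 43.1 and 29.4 CPM in mdx S4, S5 and S6, at 2.38 to 15.5 CPM in mdx_IL5Tg and at 0.422 to 1.53 CPM in IL5Tg. Cd68 had the same order of libraries in mdx as Havcr2 (37.7, 5.82 and 20.1 CPM in S4, S5 and S6), as did Cd86. Of the other macrophage markers, Fcgr1 and Mertk had that order too. C1qa, C1qb, C1qc and Mrc1 were highest in S4 but had S5 above S6. Csf1r (412, 442 and 331 CPM in S4, S5 and S6), Adgre1 and Cd163 were highest in S5. The summed level of the list ranged from 1593 to 1962 CPM in IL5Tg, from 2451 to 2762 CPM in mdx_IL5Tg and from 1535 to 1909 CPM in mdx, most of it Adgre1 (F4/80), an eosinophil gene too. None of the 10 was at 0 in all libraries. Of 9 tested dendritic cell and class II markers, 5 rose and 0 fell in mdx_IL5Tg against IL5Tg, 2 rose and 1 fell in mdx against mdx_IL5Tg and 5 rose and 0 fell in mdx against IL5Tg. Their sum ranged from 63.1 to 68.6 CPM in IL5Tg, from 222 to 383 CPM in mdx_IL5Tg and from 295 to 385 CPM in mdx. The most abundant gene of that list was Itgax, which encodes CD11c, with means of 47.0, 231 and 120 CPM. H2-Aa, H2-Ab1, H2-Eb1 and Cd74 instead had higher means in mdx than in mdx_IL5Tg (Cd74 99.1 against 39.2 CPM). The part of such cells in the Havcr2 and Cd86 values was not tested.

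**Figure D3:**
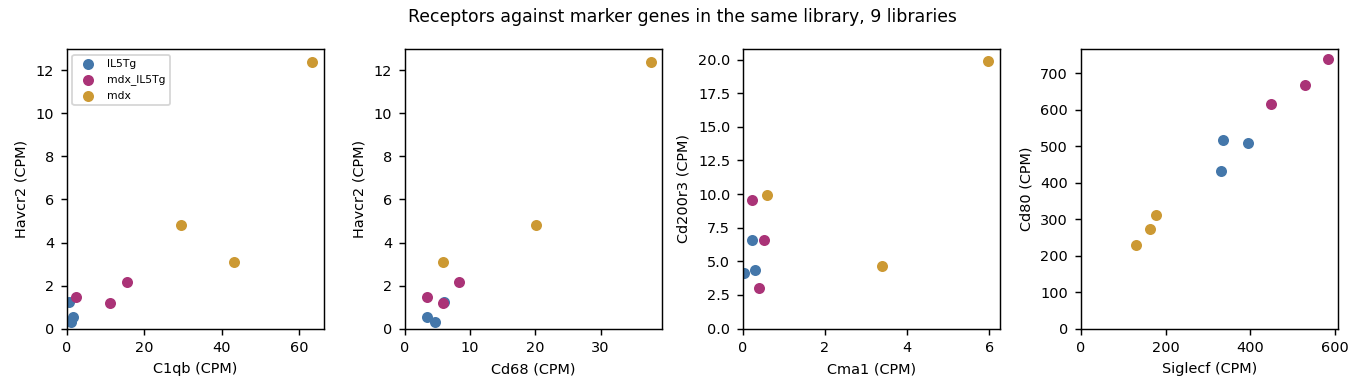
Scatter plots of 9 libraries, coloured by group, in CPM: Havcr2 against C1qb, Havcr2 against Cd68, Cd200r3 against Cma1, and Cd80 against Siglecf. The mdx library S4 is highest for Havcr2 (12.4 CPM), C1qb (63.2 CPM), Cd68 (37.7 CPM) and Cma1 (5.97 CPM), and Cd80 and Siglecf are both lowest in the mdx libraries.

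Cd101 rose in both groups with the mdx background against IL5Tg. It was at 4.51, 9.18 and 8.83 CPM in IL5Tg S7 to S9, at 56.4, 50.002 and 60.1 CPM in mdx_IL5Tg S1 to S3, and at 45.3, 44.9 and 33.3 CPM in mdx S4 to S6. The 6 libraries with the mdx background were well above the 3 IL5Tg libraries, and those of mdx lay below those of mdx_IL5Tg. Means were 7.51 ± 2.60, 55.5 ± 5.11 and 41.2 ± 6.78 CPM. The rise over IL5Tg was 7.39-fold in mdx_IL5Tg (log2 2.89, SE 0.26, edgeR adjusted p = 6.2e-04) and 5.49-fold in mdx (log2 2.46, SE 0.25, edgeR adjusted p = 1.5e-04). The difference between mdx and mdx_IL5Tg was -0.43 (SE 0.24, 95% interval -0.95 to 0.09; edgeR adjusted p = 0.21), and it passed in 3 of 20 alternatives. These were voom quality weights (-0.52, adjusted p = 0.020) and edgeR without IL5Tg S7 (-0.53, adjusted p = 0.036) or without IL5Tg S7 and mdx S5 (-0.50, adjusted p = 0.040). All 20 alternatives kept both calls against IL5Tg. Some markers of other cells also rose in both groups against IL5Tg. In mdx_IL5Tg these were 5 of 10 macrophage, 5 of 9 dendritic cell and class II and 4 of 7 muscle fibre markers. In mdx 8, 5 and 7 of them rose. Of 6 fibroblast, 4 endothelial, 3 T cell and 2 B cell markers tested, 0 rose and 0 fell in mdx_IL5Tg. Of 9 neutrophil, 6 monocyte and 10 mast cell and basophil markers, 1, 1 and 0 rose there and 0, 1 and 1 fell. In mdx, rises in these further lists, in this order, numbered 5, 1, 1, 0, 0, 3 and 4. Falls there numbered 0, 0, 1, 0, 2, 1 and 1. The muscle fibre markers summed to 4.16 to 4.997 CPM in IL5Tg, 12.8 to 15.1 CPM in mdx_IL5Tg and 23.8 to 50.9 CPM in mdx. No marker of any of these lists was at 0 in all libraries. The part of such cells in the Cd101 values was not tested.

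Of 12 eosinophil markers, 0 rose and 0 fell in mdx_IL5Tg against IL5Tg (5 higher and 6 lower at an unadjusted edgeR p under 0.05), 3 fell in mdx against mdx_IL5Tg and 7 fell against IL5Tg. Granule protein genes such as Prg2 (means of 3766, 618 and 226 CPM in IL5Tg, mdx_IL5Tg and mdx) were among the latter. Single libraries weighed on these means. Prg2 was at 6997, 1611 and 2690 CPM in IL5Tg S7 to S9 and at 79.3, 96.1 and 503 CPM in mdx S4 to S6. The levels of the receptors were also read as ratios to Siglecf, Ccr3 and Il5ra. Siglecf, whose product was the sort marker, was at 330, 336 and 394 CPM in IL5Tg S7 to S9, at 529, 449 and 584 CPM in mdx_IL5Tg S1 to S3, and at 164, 129 and 177 CPM in mdx S4 to S6. It fell in mdx against mdx_IL5Tg (log2 -1.73, SE 0.16, edgeR adjusted p = 7.2e-05), whereas the eotaxin receptor gene Ccr3 did not pass the test (-0.43, SE 0.16, edgeR adjusted p = 0.081). The interleukin-5 receptor gene Il5ra had means of 60.2, 58.1 and 61.1 CPM and no call in any comparison. Relative to Ccr3, Cd274 stood at 30.1% to 41.3% in IL5Tg, 32.4% to 41.5% in mdx_IL5Tg and 10.8% to 14.2% in mdx. Relative to Il5ra it stood at 471% to 774%, 785% to 895% and 176% to 233%. Relative to Siglecf it stood at 81.2% to 124%, 88.2% to 104% and 69.4% to 88.7%. So the mdx libraries were apart from the others by the ratios to Ccr3 and Il5ra and overlapped them by the ratio to Siglecf.

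Cd80 gave another order. It stood at 47.7% to 52.1% of Ccr3 in IL5Tg, 42.7% to 56.4% in mdx_IL5Tg and 24.7% to 28.2% in mdx. Its ratio to Il5ra was 673% to 959%, 1068% to 1283% and 425% to 463%. It stood at 129% to 154%, 126% to 137% and 167% to 177% of Siglecf. Hence it was lowest in mdx by the ratios to Ccr3 and Il5ra and highest there by the ratio to Siglecf. Cd200r4 was low in mdx by Ccr3 (0.568% to 0.730%, against 1.77% to 3.17% in the transgenic libraries) and by Il5ra (9.79% to 11.8%, against 37.2% to 56.6%), and by Siglecf it stood at 3.85% to 4.67% in mdx, 4.58% to 6.68% in mdx_IL5Tg and 5.90% to 7.94% in IL5Tg. Cd101 was low in IL5Tg by all 3 ratios, at 0.545% to 0.909% of Ccr3, 7.04% to 17.0% of Il5ra and 1.37% to 2.73% of Siglecf. In mdx_IL5Tg it was at 3.47% to 4.59% of Ccr3, 86.8% to 108% of Il5ra and 10.3% to 11.1% of Siglecf. In mdx it was at 2.94% to 5.55% of Ccr3, 47.8% to 91.3% of Il5ra and 18.8% to 34.8% of Siglecf. So Cd101 in mdx lay above mdx_IL5Tg by the ratio to Siglecf and below it in CPM. Cd200r1 was lowest in mdx by Ccr3 (2.14% to 2.59%) and Il5ra (35.3% to 44.7%) and overlapped the others by Siglecf (13.4% to 17.6%). Pdcd1lg2 in mdx overlapped IL5Tg by all 3 ratios and mdx_IL5Tg by Siglecf. Its means by Siglecf were 1.08%, 1.38% and 1.85% in IL5Tg, mdx_IL5Tg and mdx. By Siglecf, Cd86 was higher in mdx (3.76% to 10.7%) than in the transgenic libraries (1.87% to 2.97%), as were Cd200r3 and Havcr2. By Ccr3, Cd86 (0.600% to 1.58%) and Cd200r3 (0.575% to 1.80%) in mdx overlapped the transgenic libraries. They also overlapped by Il5ra (9.87% to 27.2% and 9.46% to 30.9% in mdx). Havcr2 was higher in mdx by all 3 ratios. These are ratios of CPM values within a library and describe unequal change, not the level per cell.

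Fibroblast genes were a further difference between groups, since the summed level of 6 fibroblast markers ranged from 4221 to 10631 CPM in mdx and from 715 to 2873 CPM in the transgenic libraries. With these collagen and other cell type marker genes removed before normalisation, 5 of the 9 genes fell and 1 rose in mdx against mdx_IL5Tg. The removal bears on the scaling and the genes tested, and it leaves the counts of the 9 genes unchanged. The part of other cells in those counts was not tested. Scaling by library totals alone moved the median log2 change of all genes from -0.05 to -0.27, from 0.13 to 0.46 and from 0.01 to 0.12 in the 3 comparisons. The share of called genes that were higher moved from 60.2%, 53.3% and 56.8% to 24.1%, 84.3% and 70.7%. With library totals, Cd274 in mdx against mdx_IL5Tg was -1.72 and kept its call.

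Levels of different genes were compared per length, as CPM per kilobase of exon (RPKM). Cd80 was the highest of the 9 in each group, at 131 ± 12.8, 182 ± 16.7 and 73.3 ± 11.4 RPKM in IL5Tg, mdx_IL5Tg and mdx. Cd274 came next, at 95.7 ± 17.2, 136 ± 12.3 and 32.9 ± 1.17 RPKM, without overlap with Cd80 in any group. In IL5Tg the order went on with Cd200r1 (12.4 ± 2.37) and Cd200r4 (11.9 ± 0.783), which overlapped. Next were Cd86 (2.28 ± 0.396), Cd101 (2.26 ± 0.781) and Pdcd1lg2 (1.90 ± 0.560), each overlapping its neighbour, then Cd200r3 (0.840 ± 0.222) and Havcr2 (0.255 ± 0.179).

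In mdx_IL5Tg, Cd101 took a higher place, at 16.7 ± 1.53 RPKM, overlapping with Cd200r1 (20.3 ± 4.91) and above Cd200r4 (13.5 ± 1.48). Below them came Pdcd1lg2 (3.57 ± 0.515), Cd86 (2.91 ± 0.217), Cd200r3 (1.07 ± 0.552) and Havcr2 (0.592 ± 0.183), of which the last pair overlapped. In mdx, Cd101 came after Cd80 and Cd274, at 12.4 ± 2.04 RPKM, followed by Cd200r1 (7.46 ± 1.97). The other 5 genes (Cd200r4, Cd86, Havcr2, Cd200r3 and Pdcd1lg2) had means of 1.44 to 3.23 RPKM, and each overlapped its neighbour in the order.

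**Figure D4:**
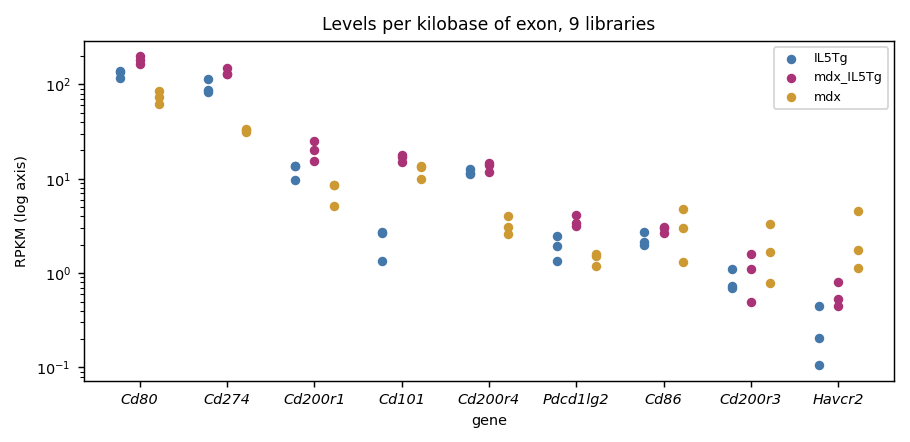
Level per length in RPKM (vertical log axis) of the 9 genes (horizontal axis) in each library, coloured by group. Cd80 and Cd274 are the highest in all 3 groups, and Cd101 changes place from 2.26 RPKM in IL5Tg to 16.7 RPKM in mdx_IL5Tg and 12.4 RPKM in mdx (means).

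Of 72 related genes listed beside the 9, 68 were in the table and 59 passed the filter. In mdx_IL5Tg against IL5Tg 6 rose and 0 fell (19 higher and 1 lower at an unadjusted p under 0.05; DESeq2 called 12 higher and 1 lower). In mdx against mdx_IL5Tg 9 rose and 17 fell (median log2 -0.05), and in mdx against IL5Tg 14 rose and 9 fell (median 0.26). Over all genes tested, 4.35% rose and 2.87% fell in the first of these comparisons. In the second 11.5% rose and 10.1% fell, and in the last 11.8% rose and 8.96% fell. The same shares stand beside the counts of the lists that follow. With scaling by library totals, 3 related genes rose and 1 fell in the first comparison. In the second 20 rose and 10 fell, and in the last 15 rose and 9 fell. Leaving out single libraries moved the counts too. In mdx_IL5Tg against IL5Tg the rises numbered 3 without mdx_IL5Tg S1, mdx_IL5Tg S2, IL5Tg S8 or IL5Tg S9, and 14 without mdx S5. In mdx against mdx_IL5Tg the rises numbered 2, 3, 1, 2 and 4 without mdx_IL5Tg S1, mdx_IL5Tg S3, mdx S4, mdx S6 and IL5Tg S9. In mdx against IL5Tg the rises numbered 9, 8 and 7 without mdx S4, IL5Tg S8 and IL5Tg S9. The falls against mdx_IL5Tg numbered 11 without mdx_IL5Tg S1. The falls between the transgenic groups numbered 1 without mdx S5 or mdx_IL5Tg S3. Calls over all genes also moved between these settings.

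The binding partners were mostly low or without a call. Of 8 listed, Cd28 and Pdcd1 (PD-1) did not pass the filter on low counts, at means of 0.114 to 0.796 CPM and 0.0336 to 0.286 CPM. Among the 6 tested, 1 rose and 1 fell in mdx against mdx_IL5Tg and 1 rose against IL5Tg. Rgmb, a PD-L2 partner, was at 3.66, 3.95 and 10.3 CPM in IL5Tg, mdx_IL5Tg and mdx (means), a rise of 1.38 (SE 0.31, edgeR adjusted p = 0.012) and 1.495 (SE 0.32, edgeR adjusted p = 0.0085). Hmgb1, a TIM-3 ligand, was at 166 CPM in mdx against 218 in mdx_IL5Tg (log2 -0.39, SE 0.12, edgeR adjusted p = 0.041). Cd200, the ligand of CD200R1, had means of 16.5, 12.4 and 20.6 CPM and no call. T cell markers, whose cells carry many of these partners, summed to 1.17 to 4.04 CPM in all 9 libraries.

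Among 10 tested genes of the B7, CD28, TIM and nectin families, 1 rose in mdx_IL5Tg against IL5Tg, 4 rose and 3 fell in mdx against mdx_IL5Tg, and 2 rose and 2 fell against IL5Tg. Vsir, which encodes the checkpoint VISTA, rose from 282 to 433 CPM in mdx_IL5Tg against IL5Tg (log2 0.62, SE 0.16, edgeR adjusted p = 0.046). In mdx it was at 280 CPM, lower than in mdx_IL5Tg (log2 -0.63, SE 0.16, edgeR adjusted p = 0.021). Cd226, an activating receptor for nectin-like ligands, was at 2.06, 3.59 and 0.262 CPM in IL5Tg, mdx_IL5Tg and mdx and fell in mdx (log2 -3.70 and -2.90, edgeR adjusted p = 6.4e-04 and 0.0021). Its inhibitory counterpart Tigit fell against mdx_IL5Tg, from 1.35 to 0.180 CPM (edgeR adjusted p = 0.0049). Their shared ligand Pvr rose there, from 19.2 to 36.7 CPM (log2 0.93, SE 0.25, edgeR adjusted p = 0.023). Against IL5Tg, Cd276 (B7-H3) was at 4.43 against 0.714 CPM and Icosl at 23.8 against 16.6 CPM (edgeR adjusted p = 0.0062 and 0.026).

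Of 15 other inhibitory and paired receptors tested, 2 rose and 6 fell in mdx against mdx_IL5Tg and 4 rose and 6 fell against IL5Tg, with no call between the transgenic groups. Clec12a, an inhibitory lectin of myeloid cells, was at 126, 148 and 50.6 CPM in IL5Tg, mdx_IL5Tg and mdx (log2 -1.55 and -1.32 in mdx, edgeR adjusted p = 0.0010 and 0.0020). Cd47, the ligand of the inhibitory receptor SIRP-alpha, was at 286, 315 and 138 CPM (log2 -1.19 and -1.05, edgeR adjusted p = 0.0040 and 0.0068). Pilra, an inhibitory receptor of myeloid cells, fell against mdx_IL5Tg (24.0 to 9.67 CPM) and Cd84, an adhesion receptor of the SLAM family, against IL5Tg (622 to 380 CPM). Cd72 rose against mdx_IL5Tg, from 0.158 to 1.39 CPM, and Milr1, an inhibitory receptor of mast cells, rose against IL5Tg, from 9.13 to 20.7 CPM.

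Of 15 genes known to act on PD-L1 expression or stability, 4 rose in mdx_IL5Tg against IL5Tg: Relb, Nfkb1 and Rela, subunits of NF-kB, and Ifngr1, a chain of the interferon-gamma receptor. Ifngr1 was at 236, 440 and 183 CPM in IL5Tg, mdx_IL5Tg and mdx, a rise of 0.90 (SE 0.14, edgeR adjusted p = 0.0092) and then a fall of 1.26 on the log2 scale (edgeR adjusted p = 2.9e-04). In mdx against mdx_IL5Tg, 4 of the 15 fell and 0 rose. Beside Ifngr1 these were Hif1a (1428 to 772 CPM), Stat3 (948 to 630 CPM) and Cmtm6, which protects PD-L1 from degradation (593 to 294 CPM; log2 -1.01, SE 0.20, edgeR adjusted p = 0.0070). Against IL5Tg, 4 of the 15 rose and 0 fell in mdx, while Cd274 itself fell. The risers included the NF-kB genes Relb (73.2 to 178 CPM), Rela (83.8 to 141 CPM) and Nfkb1 (546 to 814 CPM). Of 13 signalling genes, 1 rose between the transgenic groups, 2 rose and 3 fell in mdx against mdx_IL5Tg and 3 rose and 1 fell against IL5Tg. The riser between the transgenic groups was Bag6 (119 to 178 CPM). Tyrobp, which encodes the DAP12 adaptor of CD200R3 and CD200R4, fell in mdx against mdx_IL5Tg (412 to 239 CPM; log2 -0.79, SE 0.14, edgeR adjusted p = 0.0044). Dok2, an adaptor of CD200R1, fell from 121 to 77.6 CPM (log2 -0.64, SE 0.19, edgeR adjusted p = 0.034) and Rasa2, a Ras GTPase-activating protein, from 312 to 156 CPM against mdx_IL5Tg (log2 -0.995, SE 0.16, edgeR adjusted p = 0.0023).

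**Figure D5:**
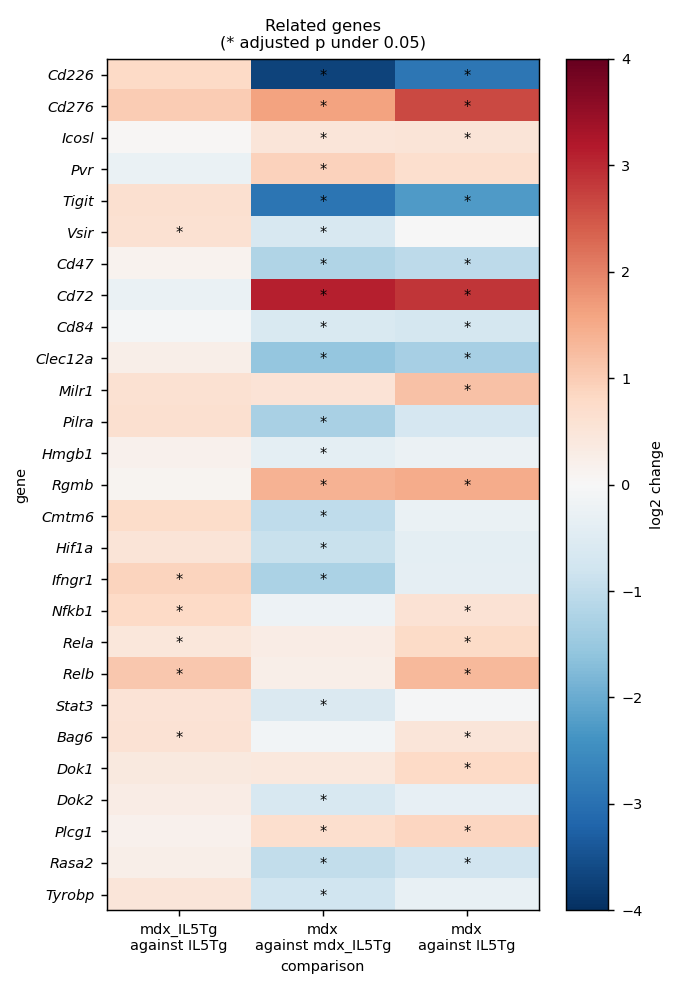
Log2 change (colour scale from blue, lower, to red, higher) of 27 related genes (vertical axis, grouped by list) in the 3 comparisons (horizontal axis). A star marks an edgeR adjusted p under 0.05. Cd226 has the lowest values in mdx (-3.70 against mdx_IL5Tg and -2.90 against IL5Tg), and Cd72 and Cd276 are among the highest (3.12 against mdx_IL5Tg and 2.63 against IL5Tg).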

How the data were processed

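Values are the authors' expected counts, as deposited without normalisation and estimated with RSEM 1.3.0, per the submitters' processing notes, which also name cutadapt 2.10, STAR 2.5.3, limma and the build mm10. Sources used here do not name the annotation, the settings or the strand. Of the values, 6.03% were not whole and were rounded. Column names hold a group and an S number absent from the labels, so columns were tied to groups, not to numbered replicates.

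Genes were filtered with filterByExpr of edgeR 4.0.16 (minimum count 10; R 4.3.3), scaled with TMM factors and tested with the robust quasi-likelihood fit over 9 libraries with 1 mean per group. P-values were adjusted by Benjamini-Hochberg over 15886 genes (threshold 0.05). Intervals are 95%. RPKM divides CPM by merged exon length (GENCODE M21). The test was checked on simulated counts. An exact permutation test of 3 libraries against 3 cannot go below p = 0.1, so none was used. Library pairs within a group had r of 0.957 to 0.987 across genes, and none agreed within sampling noise.

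The 9 genes and the gene and marker lists were chosen with earlier results of these data known. Related genes are named where adjusted p was under 0.05, a group mean reached 1 CPM and groups did not overlap, up to 4 per list. For each of the 9, the 3 genes most alike by Pearson r of log2 CPM are named too. Alternatives were DESeq2 1.42.0, limma 3.58.1 voom (also with quality weights), no filter, a filter of 50 counts in 3 libraries, RLE factors, scaling by library totals, a fit of the 2 groups compared, the table without mitochondrial, haemoglobin or small RNA genes, leaving out each library, IL5Tg S7 and mdx S5 left out together and, chosen after seeing the data, removal of collagen and other cell type marker genes. A related gene that the naming rule selects is not reported here.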

Additional observations from a re-analysis of the deposited data

How the results depend on the processing

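No paired analysis was possible because the columns carry S numbers and no replicate numbers. Of the 9 genes, the falls in mdx kept their calls in all 20 alternatives: Cd274 -2.18 to -1.72, Pdcd1lg2 -1.50 to -1.0008, Cd80 -1.52 to -0.98, Cd200r1 -1.71 to -1.11 and Cd200r4 -2.35 to -1.73 (log2, against mdx_IL5Tg). The count of the 9 higher in mdx_IL5Tg than IL5Tg (1) was 5 with DESeq2, 3 with limma voom, 4 with quality weights, 3 without the filter, 2 with marker genes removed and 1 to 5 with a library left out. The count higher in mdx than mdx_IL5Tg (1) was 2 with quality weights and 0 to 1 with a library left out, and higher in mdx than IL5Tg (2) it was 2 to 4 with a library left out. Related genes higher in mdx_IL5Tg than IL5Tg (6) numbered 12 with DESeq2, 20 with quality weights, 3 with library totals, 12 with only the groups compared, 14 without IL5Tg S7 and mdx S5, and 3 to 14 with a library left out. Those lower (0) numbered 1 with DESeq2, limma voom, library totals, only the groups compared or without IL5Tg S7 and mdx S5, 2 with quality weights and 0 to 1 with a library left out. Related genes higher in mdx than mdx_IL5Tg (9) numbered 18 with quality weights, 5 with RLE factors, 20 with library totals, 5 with only the groups compared and 1 to 9 with a library left out. Those lower (17) numbered 10 with library totals and 11 to 18 with a library left out. In mdx against IL5Tg, those higher (14) numbered 7 to 17 with a library left out and those lower (9) 14 with quality weights. Counts over all genes moved with the setting too. Rises in mdx_IL5Tg against IL5Tg numbered 691 in the main edgeR fit, 1207 with DESeq2, 2090 with quality weights and 311 with library totals. In mdx against mdx_IL5Tg they numbered 1830, 2278, 3986 and 4007 in these settings, 600 without mdx S4 and 429 without mdx_IL5Tg S1. Signs turned only for changes without a call: Cd200r4 in mdx_IL5Tg against IL5Tg (-0.0369 with library totals), Cd200r3 there (-0.0228 without mdx_IL5Tg S3 and up to 0.73 with another library left out), Cd86 in mdx against mdx_IL5Tg (-0.0490 with limma voom, -0.0422 with only the groups compared, -0.0424 with marker genes removed and -0.51 to 0.41 with a library left out) and Cd86 against IL5Tg (-0.12 without mdx S4, up to 0.77 without mdx S5). The cause of these shifts was not tested. Depth limits Havcr2 in IL5Tg, with 9 to 38 counts a library.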

Other observations

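The pairs of receptors kept different proportions within a library, as ratios of RPKM. Cd80 stood at 51.2 to 64.5 times Cd86 in IL5Tg and 58.5 to 67.0 times in mdx_IL5Tg, and at 15.5, 46.4 and 28.3 times in mdx S4, S5 and S6. Cd274 stood at 43.3 to 66.4 times Pdcd1lg2 in IL5Tg, 31.2 to 48.0 times in mdx_IL5Tg and 19.9 to 28.4 times in mdx. Cd80 stood at 1.21 to 1.55 times Cd274 in IL5Tg, 1.29 to 1.40 times in mdx_IL5Tg and 1.95 to 2.49 times in mdx. The inhibitory Cd200r1 stood at 0.753 to 1.21 times the activating Cd200r4 in IL5Tg, 1.297 to 1.80 times in mdx_IL5Tg and 2.02 to 2.79 times in mdx, so the 3 groups did not overlap. These ratios were not tested.

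The genes most alike in level over the 9 libraries are named by Pearson r of log2 CPM among 11053 genes, with no test, since libraries of a group share their genotype. For Cd274 they were Cmtm3 (r = 0.99; means of 156, 254 and 20.7 CPM in IL5Tg, mdx_IL5Tg and mdx), Lrp12 and Cldnd1. For Pdcd1lg2 they were Taf12 (r = 0.95), Chrm3 and Mapre1. For Cd80 they were the Src-like adaptor gene Sla (r = 0.99; 480, 568 and 328 CPM), Lpcat3 and Siglecf. For Cd86 they were Pphln1 (r = 0.92), Tnf and Trim36. For Havcr2 they were Dpep2 (r = 0.99; 0.269, 0.699 and 3.24 CPM), Clec4d and Atp10a. For Cd200r1 they were Slc35a5 (r = 0.98), Ap3m2 and Prcp. For Cd200r3 they were Olr1 (r = 0.91), Mios and Ptger2. For Cd200r4 they were Dhrs9 (r = 0.99; 411, 542 and 51.3 CPM), Cmtm2a and Dusp16. For Cd101 they were Taf5l (r = 0.98), Zfyve28 (0.125, 2.05 and 0.963 CPM) and Ptprs (57.5, 104 and 90.0 CPM).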
